A study of Mus musculus with 4 samples.

Results

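The T cell-attracting chemokines and receptors described here were 9 of the 31053 genes in the count matrices, taken by symbol. The ligands were Cxcl9, Cxcl10, Cxcl16, Ccl17 and Ccl22, and the receptors were Cxcr3, Cxcr6, Ccr4 and Ccr7. All 9 were read in each of the 4 libraries, with totals over the kept cells between 102 unique molecular identifiers (UMIs, each standing for 1 captured RNA molecule) for Ccr4 and 40397 for Cxcl10. Chemokines are small secreted proteins that direct leukocytes through receptors on the cell surface. CXCL9 and CXCL10 are induced by interferon gamma and bind CXCR3 on activated T and NK cells, CXCL16 is a membrane-tethered ligand of CXCR6, and CCL17 and CCL22 are ligands of CCR4, a receptor common on regulatory T cells. CCR7 answers to CCL19 and CCL21 and brings naive T cells and matured dendritic cells to lymph nodes.

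The sources used here describe the cells as immune cells that had infiltrated brain tumours of C57BL/6 mice. The cells were taken at the symptomatic stage of a genetically engineered glioma model. The study compared the myeloid cells of tumours with mutant and wild-type IDH1. The groups were 2 libraries labelled mIDH1 (mutant IDH1) and 2 labelled wtIDH1 (wild-type IDH1). The enzyme IDH1 makes alpha-ketoglutarate, and its mutant form produces the metabolite 2-hydroxyglutarate. The tumour's driver alleles, the age of the mice, the sort that gave immune cells and whether the libraries came from separate animals are not given in the sources used here, so p-values measure only the spread between these libraries. Idh1 itself gave 1567 and 932 UMIs in mIDH1 libraries 1 and 2, against 793 and 1158 in wtIDH1 libraries 1 and 2, and a count of this gene cannot separate the alleles, so it checks no label.

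The mIDH1 libraries held 29849183 and 20908476 UMIs over 4708 and 4173 barcodes, and the wtIDH1 libraries 23695857 and 22908011 UMIs over 3707 and 3701 barcodes. Of 16289 barcodes, 13197 were kept as cells, and pairs of libraries shared 6 to 25 barcode sequences. Cells were assigned to a type by gates on marker genes, none of them a member: a cell needed at least 3 UMIs from at least 2 markers of a type and a score of 5 for their excess over the number that its depth predicts. No gate took 2317 cells, or 19.7 and 16.9% of the mIDH1 libraries and 15.9 and 17.4% of the wtIDH1 libraries. Not all cells were immune by their markers: a tumour or glia gate took 88 and 34 mIDH1 and 15 and 27 wtIDH1 cells. A gate is a range and not a sharp class: cells near its limit made up between 2.43 and 7.55% of the T cell gate and between 20.5 and 30.8% of the microglia gate. Neutrophils stood apart, with 24.1 and 46.4% of the kept mIDH1 cells and 3.04 and 5.23% of the kept wtIDH1 cells. The Foxp3 T cell gate was checked on Ikzf2, a regulatory T cell gene that took no part in the gating. Its level is given as CPM (UMIs of a gene scaled by all UMIs of the gate in that library). It had 2216 to 2471 CPM in Foxp3 T cells and 113 to 222 in CD4 T cells. The T cell gene Cd3e had 5.31 to 10.2 CPM in NK cells, but it was itself a gating marker, so this is no separate check. The myeloid gates were looser: of the macrophage gate, 24.1 and 22.1% of mIDH1 and 57.8 and 68.5% of wtIDH1 cells also lay in a Leiden cluster named for macrophages, and no cluster was named for cDC1. In the mature dendritic cell gate, 7 of 31 cells of mIDH1 library 2 held no Ccr7 UMI and had a median of 30470 UMIs, with 57.1% of them near the limit. Free RNA in droplets gives UMIs in cells that do not express a gene, so shares of cells with a UMI are set beside a cell type that should lack it. Intervals are Wilson 95% intervals and cover counting error only, as do floors, which are set at 3 counts.

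The stretches of 250 bases before the RefSeq starts of Cxcl9, Cxcl10, Ccl17 and Ccl22 (RefSeq, GRCm38.p6) are shown because each pair is made up of neighbouring genes whose products share a receptor. Across 48 library-by-gate sums of 12 gates, which share libraries and depth, the pairs had correlated levels, with a Pearson correlation of 0.75 for Cxcl9 with Cxcl10 and 0.82 for Ccl17 with Ccl22. The stretches are chr5:92328080-92328329 on the minus strand for Cxcl9, chr5:92348890-92349139 on the minus strand for Cxcl10, chr8:94810203-94810452 on the plus strand for Ccl17 and chr8:94745434-94745683 on the plus strand for Ccl22. They run 5′ to 3′ on the strand of the gene, and capitals mark matches, on either strand, to the interferon-stimulated response element (ISRE, the letters GAAA repeated after any 2 bases), the gamma-activated site (GAS, TTCNNNGAA) or the NF-kB motif.
Cxcl9: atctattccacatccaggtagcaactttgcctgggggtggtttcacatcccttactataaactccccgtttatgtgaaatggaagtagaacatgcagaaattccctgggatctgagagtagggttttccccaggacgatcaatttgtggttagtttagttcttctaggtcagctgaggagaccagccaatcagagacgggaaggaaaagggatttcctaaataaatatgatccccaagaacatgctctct
Cxcl10: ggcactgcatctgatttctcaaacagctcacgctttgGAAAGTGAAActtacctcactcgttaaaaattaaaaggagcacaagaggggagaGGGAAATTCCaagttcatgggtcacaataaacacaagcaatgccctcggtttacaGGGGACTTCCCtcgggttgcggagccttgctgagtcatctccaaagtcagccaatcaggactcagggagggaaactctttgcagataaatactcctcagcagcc
Ccl17: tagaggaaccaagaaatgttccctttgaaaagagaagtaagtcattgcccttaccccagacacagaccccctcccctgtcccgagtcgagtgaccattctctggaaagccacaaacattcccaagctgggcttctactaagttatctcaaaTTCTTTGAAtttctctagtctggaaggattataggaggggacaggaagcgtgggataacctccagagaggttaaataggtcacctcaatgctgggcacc
Ccl22: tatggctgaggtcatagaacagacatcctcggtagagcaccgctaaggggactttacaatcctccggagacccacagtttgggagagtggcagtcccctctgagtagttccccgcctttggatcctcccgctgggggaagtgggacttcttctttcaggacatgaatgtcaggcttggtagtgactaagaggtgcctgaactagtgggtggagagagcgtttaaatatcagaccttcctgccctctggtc

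The Cxcl10 stretch held the ISRE letters GAAAGTGAAA from 213 to 204 bases before the start, an NF-kB match from 159 to 150 bases before it, and overlapping NF-kB matches from 104 to 94 bases before it. The Ccl17 stretch held the GAS letters TTCTTTGAA from 99 to 91 bases before the start. None of these letters occurred in the stretches of Cxcl9 and Ccl22, nor in those of Cxcr3, Cxcr6 and Ccr4, and Cxcl16 and Ccr7 were not matched to the table. Of 32851 promoters of this length, 2.98% held the ISRE letters, 7.02% the GAS letters and 7.25% the NF-kB motif. A match is a description of the letters and does not show a working site.

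Cxcl9 (5:92321347-92328079, mm10, minus strand) encodes an interferon gamma-induced ligand of CXCR3 and was read throughout the myeloid gates. Levels are given as CPM for libraries 1 and 2 in turn. In monocytes Cxcl9 had 948 and 1196 CPM in mIDH1 and 477 and 441 CPM in wtIDH1 libraries. In macrophages it had 391.5 and 1050 CPM in mIDH1 and 403 and 388 CPM in wtIDH1 libraries. In the conventional dendritic cells of the cDC2 gate it had 515 and 1196 CPM in mIDH1 and 617 and 296 CPM in wtIDH1 libraries. The ranges of these gates overlapped, and mIDH1 library 2 was the highest library in all of them. Single cells weighed much: 1 cell held 53.5% of the cDC2 Cxcl9 UMIs of mIDH1 library 1. In microglia the level was 252 and 319 CPM in mIDH1 and 283 and 238 CPM in wtIDH1 libraries, and in neutrophils 95.2 and 216 CPM in mIDH1 and 36.4 and 79.4 CPM in wtIDH1 libraries. Neutrophils were thus the lowest of these myeloid gates in every library. A Cxcl9 UMI was found in 34.7% (30.5 to 39.2) and 31.6% (27.5 to 36.1) of mIDH1 monocytes and in 33.5% (30.3 to 36.8) and 25.8% (22.1 to 29.96) of wtIDH1 monocytes, at medians of 8793.5, 9436, 8066 and 7168 UMIs per cell. In NK cells, which should lack the gene, it was found in 4.30 and 0.758% of mIDH1 and in 1.88 and 0% of wtIDH1 cells, at medians of 3601, 3543.5, 2744.5 and 2529 UMIs, and 0 of 173 cells allows a share of up to 1.73%. With each cell thinned to 1000 UMIs the monocyte shares were 21.1 and 20.0% in mIDH1 and 17.6 and 12.7% in wtIDH1 libraries, and the NK shares 2.15 and 0% in mIDH1 and 0.377 and 0% in wtIDH1 libraries.

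**Figure D1:**
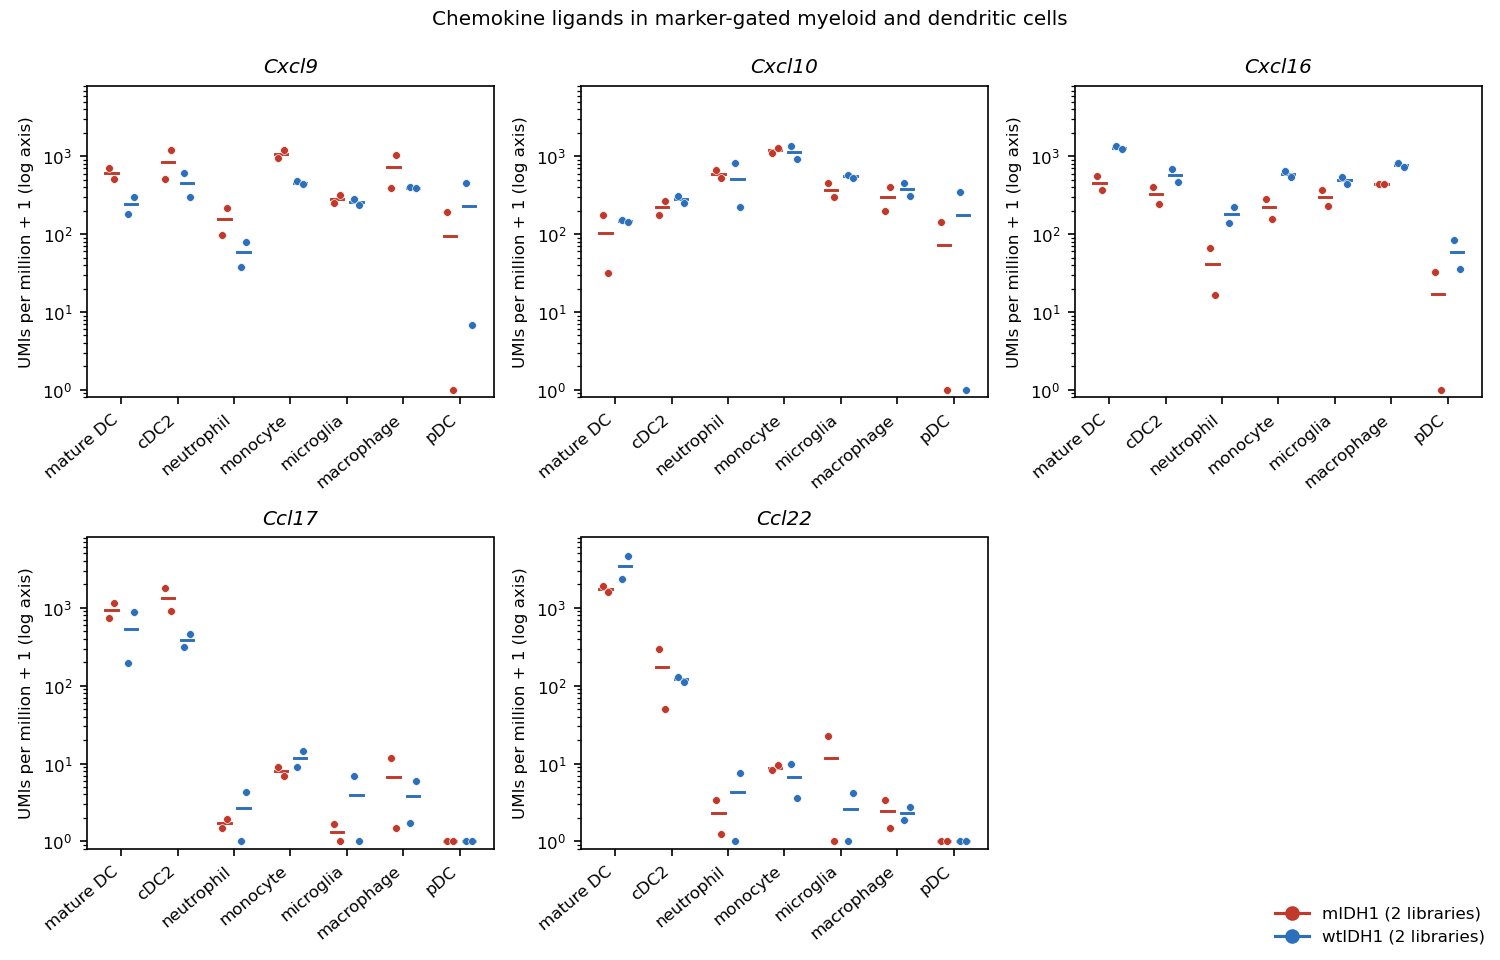
Levels of the 5 ligands in 7 marker gates, as CPM plus 1 on a log axis. Points are libraries (red mIDH1 on the left, blue wtIDH1 on the right, 2 each) and bars are their means. Cxcl10 is highest in monocytes, Ccl17 is over 100 CPM in cDC2 and mature DC in all 4 libraries, and Ccl22 is highest in mature DC.

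Cxcl10 (5:92346638-92348889, minus strand), the neighbouring gene and another CXCR3 ligand, was highest in monocytes among the gates tested. Its monocyte level was 1110 and 1288 CPM in mIDH1 and 1355 and 911 CPM in wtIDH1 libraries, and these values lay above those of the 11 other gates with at least 10 cells in every library. Outside them, 11 endothelial cells of wtIDH1 library 1 had 1114 CPM. Neutrophils followed with 662 and 531 CPM in mIDH1 and 810 and 225 CPM in wtIDH1 libraries, and microglia with 447 and 296 CPM in mIDH1 and 578 and 532 CPM in wtIDH1 libraries. Neutrophils, microglia and macrophages overlapped in Cxcl10. The macrophages had 197 and 404 CPM in mIDH1 and 452 and 306 CPM in wtIDH1 libraries, and mature dendritic cells had 177 and 30.4 CPM in mIDH1 and 153 and 141 CPM in wtIDH1 libraries. Cxcl10 overlaps the gene Art3 on the other strand, and whether the counting used strand is not given in the sources used here.

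Gates were compared within libraries on UMI sums, with the library as a block, by edgeR's quasi-likelihood test, and a gene was called at a Benjamini-Hochberg adjusted p under 0.05 over all genes tested. Between monocytes and macrophages 5 members passed the filter on low counts, of which 3 were higher and 1 lower in monocytes, beside 40.5% of all genes called in either direction (20.7% higher and 19.9% lower). Cxcl10 was higher in monocytes than in macrophages by 1.87 ± 0.15 (log2 fold change ± SE, edgeR adjusted p = 1.36e-05). Cxcl9 was higher by 0.52 ± 0.16 (adjusted p = 0.0288), a call lost without mIDH1 library 1 (0.27) and with Leiden clusters. Ccl22 was higher by 2.08 ± 0.43 (adjusted p = 0.00358), but few cells carried it: its UMIs lay in 9 and 8 mIDH1 and 15 and 2 wtIDH1 monocytes, and single cells held 68.8 and 40.5% of them in mIDH1 and 34.8 and 90.0% in wtIDH1 libraries. In wtIDH1 library 2 the share of cells with a Ccl22 UMI was 0.420% in monocytes and 1.48% in macrophages. Cxcl16 was lower by −0.67 ± 0.16 (adjusted p = 0.00739; −0.42 without mIDH1 library 2). Between neutrophils and monocytes all 5 members tested were lower in neutrophils, beside 51.7% of all genes called in either direction (22.2% higher and 29.4% lower). Cxcl9 was lower by −2.56 ± 0.23 (adjusted p = 4.32e-11) and Cxcl16 by −1.93 ± 0.21 (adjusted p = 4.4e-09). Cxcl10 was lower by −0.85 ± 0.20 (adjusted p = 0.000618), and was not called without wtIDH1 library 2 (−0.50). Ccl17 was lower by −2.53 ± 0.60 (adjusted p = 0.000735), and Ccl22 by −2.04 ± 0.66 (adjusted p = 0.0108), a call lost without mIDH1 library 2 (−0.90) and with DESeq2. Both genes were near the floor: neutrophils held 1 and 4 Ccl17 UMIs in mIDH1 and 0 and 1 in wtIDH1 libraries. For Ccl22 they held 5 and 1 in mIDH1 and 0 and 2 in wtIDH1 libraries. In wtIDH1 library 1 the neutrophil floor for Ccl17, 13.65 CPM, was above the 7.91 CPM of its monocytes. Between microglia and macrophages 3 members were tested and 2 were lower in microglia, beside 15.8% of all genes (7.77% higher and 8.03% lower). These were Cxcl9 at −0.97 ± 0.20 (adjusted p = 0.00639) and Cxcl16 at −0.72 ± 0.16 (adjusted p = 0.0105), the second not called without wtIDH1 library 1 (−0.74). Cxcl10 gave 0.40 ± 0.22 there (adjusted p = 0.282).

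Cxcl16 (11:70453983-70459984, minus strand), which encodes a transmembrane chemokine that can be shed, was read in macrophages, monocytes and dendritic cells alike, and its ranges in these gates overlapped. In mature dendritic cells, defined by migratory genes such as Fscn1, it had 553 and 365 CPM in mIDH1 and 1350 and 1236 CPM in wtIDH1 libraries. In macrophages it had 441 and 446 CPM in mIDH1 and 818 and 725 CPM in wtIDH1 libraries. In monocytes it had 284 and 155 CPM in mIDH1 and 639 and 547 CPM in wtIDH1 libraries. Both mIDH1 libraries were below both wtIDH1 libraries in each of these gates. The gates share the same libraries and are not separate tests, and the share of all genes with such an order was not counted. The same order held in cDC2, with 406 and 245 CPM in mIDH1 and 676 and 472 CPM in wtIDH1 libraries, and in neutrophils, with 64.8 and 15.4 CPM in mIDH1 and 136 and 225 CPM in wtIDH1 libraries. It also held in NK cells, with means of 4.38 CPM in mIDH1 and 22.0 CPM in wtIDH1 libraries. So it did in CD8 T cells, with means of 2.69 and 11.6 CPM, and in cells without a gate, with 83.7 and 377 CPM. CD4 and Foxp3 T cells overlapped, and B cells and the tumour or glia gate were higher in mIDH1. The part of free RNA in these orders was not tested. Cxcl16 overlaps Zmynd15, which is 1 of the 10 markers of the mature dendritic cell gate, on the other strand.

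Ccl17 (8:94810453-94812036, plus strand) and Ccl22 (8:94745590-94751699, plus strand) encode the CCR4 ligands and were read almost entirely in dendritic cells. Ccl17 had 740 and 1152 CPM in mIDH1 mature dendritic cells and 193 and 873 CPM in wtIDH1 ones. In cDC2 it had 1786 and 922 CPM in mIDH1 and 312 and 454 CPM in wtIDH1 libraries, while monocytes had 7.91 and 5.94 CPM in mIDH1 and 7.91 and 13.4 CPM in wtIDH1 libraries. The mature and cDC2 gates overlapped in Ccl17, each being the higher in 2 of 4 libraries. Ccl22 had 1906 and 1609 CPM in mIDH1 mature dendritic cells and 2324 and 4595 CPM in wtIDH1 ones. In cDC2 it had 295 and 48.5 CPM in mIDH1 and 127 and 111 CPM in wtIDH1 libraries. For Ccl22 the mature gate was above cDC2, and cDC2 above every other gate tested, in all 4 libraries. The cDC1 gate held only 7 and 6 mIDH1 and 16 and 27 wtIDH1 cells and was not tested; its Ccl17 level was 434 and 78.2 CPM in mIDH1 and 153 and 582 CPM in wtIDH1 libraries.

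Between mature dendritic cells and cDC2 6 members were tested, of which 3 were higher and 1 lower in mature cells, beside 31.6% of all genes called in either direction (14% higher and 17.6% lower). Ccl22 was higher by 4.26 ± 0.46 (edgeR adjusted p = 0.000116) and Ccr7 by 6.10 ± 0.53 (adjusted p = 4.05e-05). Cxcl16 was higher by 0.81 ± 0.23 (adjusted p = 0.0242), which was not called without wtIDH1 library 1 (0.70) or without wtIDH1 library 2 (0.54). Cxcl10 was lower by −1.14 ± 0.39 (adjusted p = 0.049), which was not called without mIDH1 library 2 (−0.68), wtIDH1 library 1 (−1.25) or wtIDH1 library 2 (−1.33). That call held in 4 of 11 alternatives and was also lost with library totals (−1.08), at 5% mitochondrial UMIs (−0.56), with stricter gates (−0.69) and with DESeq2 (−1.17). Ccl17 gave −0.22 ± 0.36 (adjusted p = 0.693) and Cxcl9 −0.66 ± 0.36 (adjusted p = 0.195). Whether the CCR4 ligands differed from each other in this respect was not tested. Between cDC2 and monocytes 6 members were tested, of which 3 were higher and 1 lower in cDC2, beside 35.5% of all genes (16.9% higher and 18.6% lower). Ccl17 was higher by 6.20 ± 0.37 (adjusted p = 1.15e-07), Ccl22 by 4.17 ± 0.33 (adjusted p = 8.88e-07) and Ccr7 by 2.54 ± 0.30 (adjusted p = 2.67e-05). Cxcl10 was lower in cDC2 by −2.31 ± 0.13 (adjusted p = 6.8e-08). Cxcl9, in contrast, gave −0.37 ± 0.16 (adjusted p = 0.0878).

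Where the UMIs of each gene lay depends on the size of a gate as well as on its level. Monocytes held 52.3 and 52.9% of the Cxcl9 UMIs of the mIDH1 libraries and 49.9 and 29.0% of those of the wtIDH1 libraries, and macrophages 26.7 and 22.0% in mIDH1 and 30.9 and 52.3% in wtIDH1 libraries. For Cxcl10, neutrophils held 15.5 and 23.6% of the UMIs in mIDH1 and 1.202 and 0.922% in wtIDH1 libraries, beside 880 and 1628 mIDH1 and 93 and 156 wtIDH1 neutrophils. Monocytes held 55.5 and 60.2% of the Cxcl10 UMIs in mIDH1 and 70.6 and 47.8% in wtIDH1 libraries. Macrophages were the largest source of Cxcl16 in 3 of 4 libraries, with 45.2 and 41.0% in mIDH1 and 38.8 and 56.7% in wtIDH1 libraries, and monocytes were larger, at 41.5%, in wtIDH1 library 1. Of Ccl17, cDC2 held 56.2 and 46.6% in mIDH1 and 62.7 and 50.6% in wtIDH1 libraries. Of Ccl22, mature dendritic cells held 83.2 and 89.0% in mIDH1 and 78.8 and 85.9% in wtIDH1 libraries. T cells held 95.3 to 97.7% of the Cxcr6 UMIs and 71.6 to 81.4% of the Cxcr3 UMIs of a library. The widest 95% interval of any of these shares spanned 16.2 percentage points for Cxcr3 and 38.6 for Ccr4, whose libraries held only 10 to 46 UMIs, and at most 2.28 for Cxcl10.

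**Figure D2:**
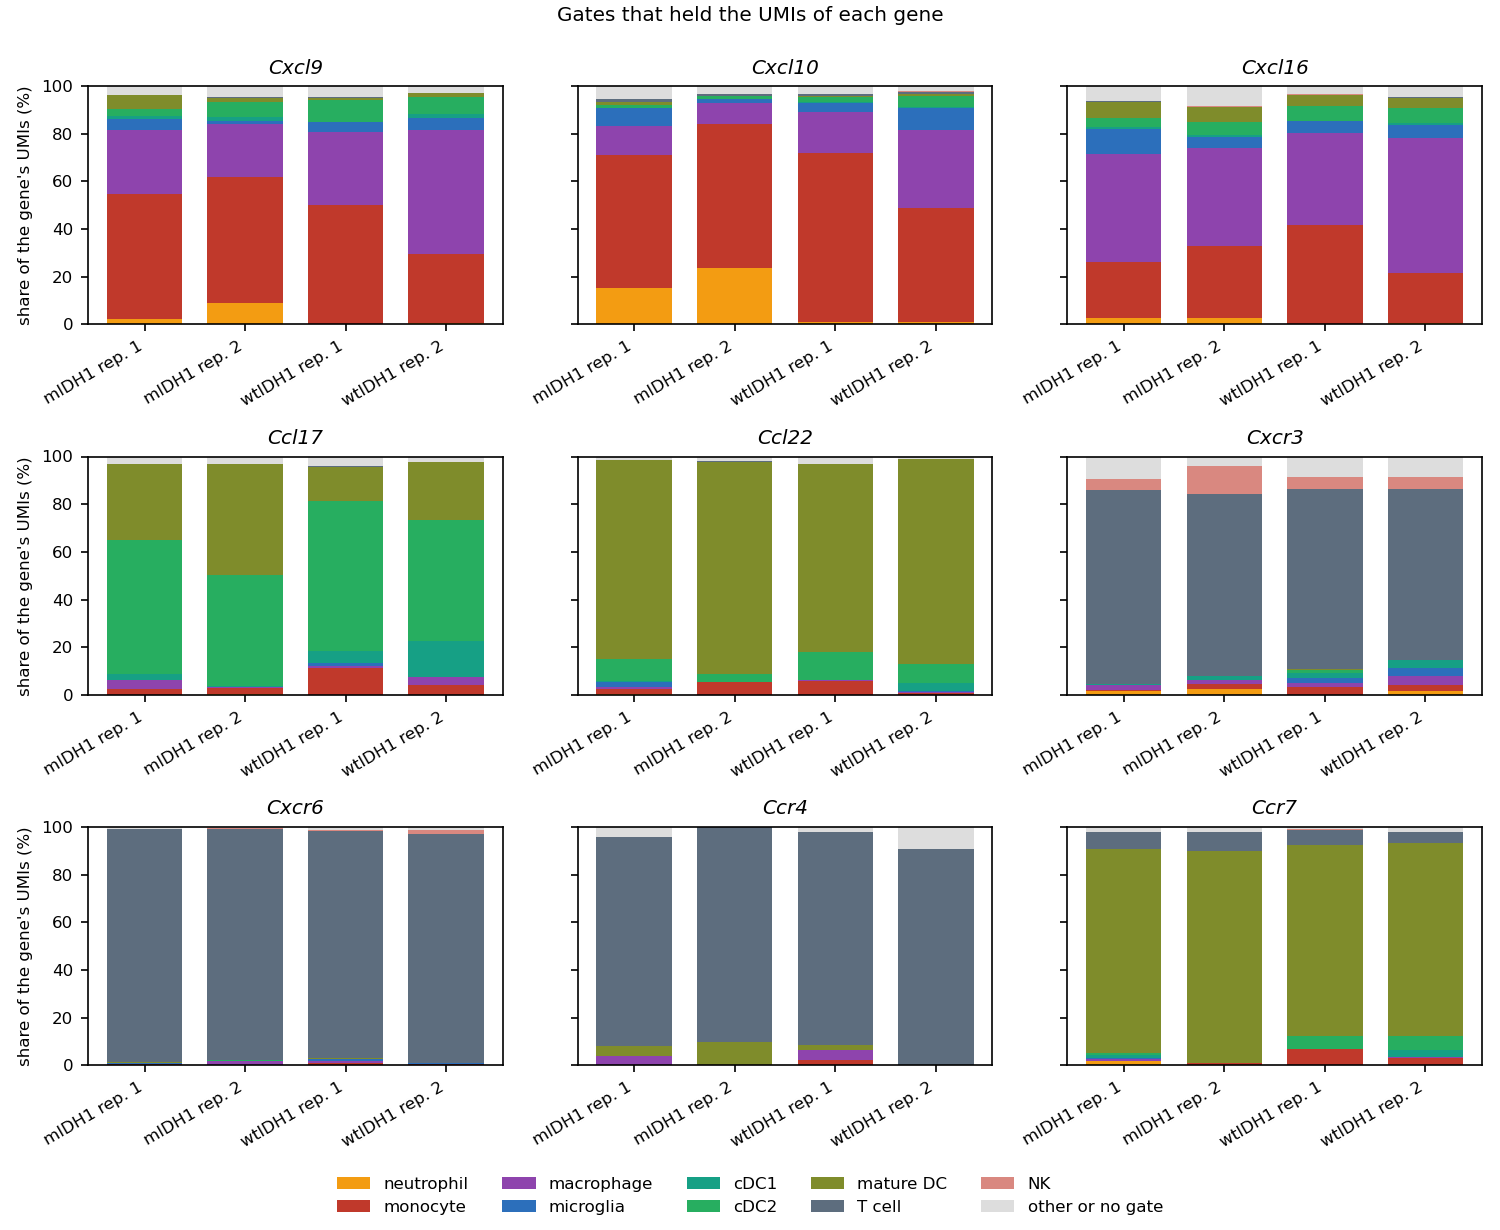
Share of each gene's UMIs, in percent, by the gate of the cell that held them, 1 bar per library with mIDH1 libraries on the left. Monocytes and macrophages fill most of the Cxcl9, Cxcl10 and Cxcl16 bars, the dendritic gates fill the Ccl17 and Ccl22 bars, T cells fill the Cxcr3, Cxcr6 and Ccr4 bars and mature DC fill the Ccr7 bars, with 80.0 to 89.0% of its UMIs.

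Cxcr3 (X:101731535-101734269, minus strand), the receptor of CXCL9 and CXCL10, was highest in Foxp3 T cells, the regulatory T cells. These had 170 and 213 CPM in mIDH1 and 143 and 143 CPM in wtIDH1 libraries, above the CD4 T cells in every library. Natural killer (NK) cells had 29.2 and 34.6 CPM in mIDH1 and 9.46 and 10.8 CPM in wtIDH1 libraries. CD8 T cells had 26.98 and 33.2 CPM in mIDH1 and 27.6 and 22.5 CPM in wtIDH1 libraries, and CD4 T cells had 80.2 and 137 CPM in mIDH1 and 34.3 and 48.1 CPM in wtIDH1 libraries. The genotypes separated in the Foxp3, NK and CD4 gates and overlapped in the CD8 gate. Among cells that should lack it, monocytes had 0.226 to 0.776 CPM. Between Foxp3 and CD4 T cells 4 members were tested, of which 1 was higher and 1 lower in Foxp3 T cells, beside 14.7% of all genes (6.69% higher and 7.97% lower). Cxcr3 was higher in Foxp3 T cells by 1.23 ± 0.25 (edgeR adjusted p = 0.00174). Between CD8 and CD4 T cells 5 members were tested and 3 were lower in CD8 T cells, beside 22.5% of all genes (12.3% higher and 10.2% lower), with Cxcr3 at −1.21 ± 0.24 (adjusted p = 0.00293). Between NK and CD8 T cells 5 members were tested and 2 were lower in NK cells, beside 41.2% of all genes (19.2% higher and 22% lower), and Cxcr3 gave −0.63 ± 0.29 (adjusted p = 0.104).

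**Figure D3:**
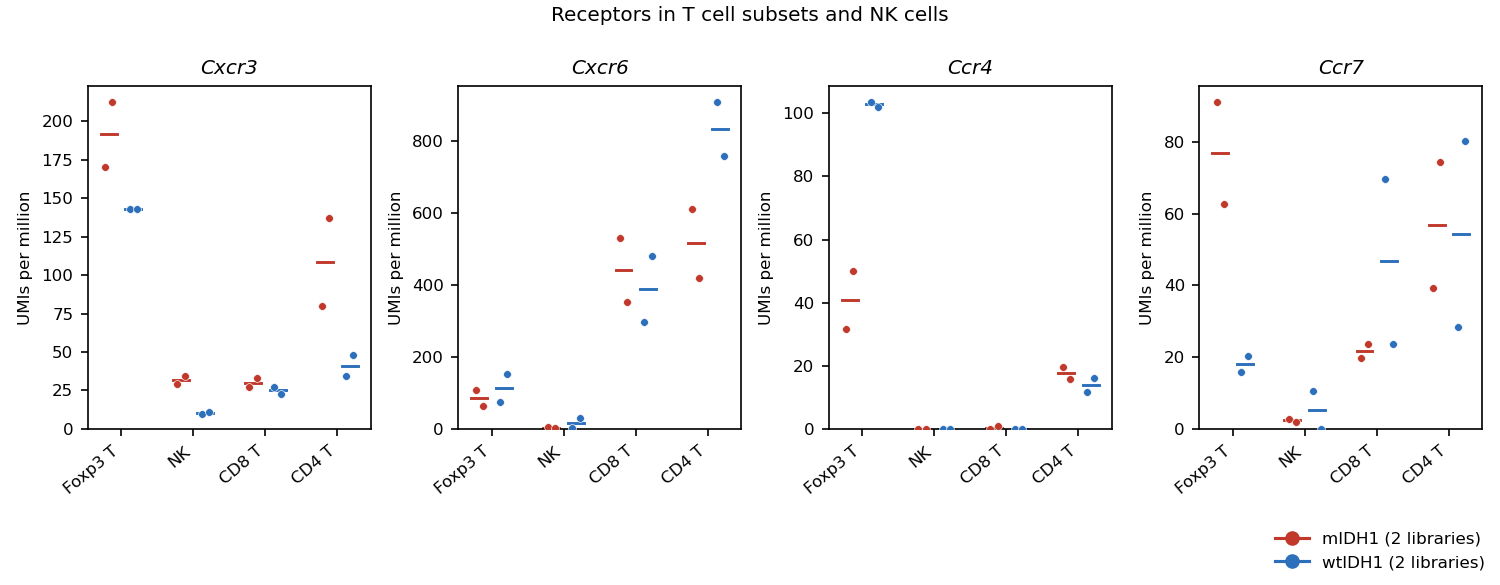
Levels of the 4 receptors in Foxp3 T, NK, CD8 T and CD4 T cells, as CPM on linear axes that start at 0. Points are libraries (red mIDH1 on the left, blue wtIDH1 on the right, 2 each) and bars are their means; Cxcr3 and Ccr4 are highest in Foxp3 T cells, and Cxcr6 in CD4 and CD8 T cells.

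Cxcr6 (9:123806475-123811760, plus strand), the receptor of CXCL16 and a gene of tissue-resident and effector T cells, was read mainly in CD4 and CD8 T cells. CD8 T cells had 530 and 352 CPM in mIDH1 and 296 and 480 CPM in wtIDH1 libraries, and CD4 T cells had 612 and 419 CPM in mIDH1 and 907 and 756 CPM in wtIDH1 libraries. By CPM, CD4 T cells were above CD8 T cells within each of the 4 libraries, although the ranges overlapped. Foxp3 T cells had 107 and 62.6 CPM in mIDH1 and 75.6 and 153 CPM in wtIDH1 libraries, below the CD8 T cells in all. NK cells had 5.31 and 2.04 CPM in mIDH1 and 1.18 and 30.7 CPM in wtIDH1 libraries, from 1 to 17 UMIs each. A Cxcr6 UMI was found in 91.9% (88.3 to 94.5) and 82.0% (74.5 to 87.7) of mIDH1 CD8 T cells and in 62.5% (54.4 to 70.0) and 79.2% (73.5 to 84.0) of wtIDH1 CD8 T cells, whereas monocytes gave 0.664 and 0.220% in mIDH1 and 1.11 and 0.630% in wtIDH1 libraries at greater depth. Among CD4 T cells the shares were 73.4 and 55.2% in mIDH1 and 78.3 and 68.4% in wtIDH1 libraries. They were thus below the CD8 shares in all libraries but wtIDH1 library 1. The CD4 T cells were shallower, with medians of 3488 to 4698 UMIs against 5884 to 7373 in CD8 T cells. With cells thinned to 1000 UMIs the CD8 shares were 42.4 and 32.8% in mIDH1 and 25.0 and 36.8% in wtIDH1 libraries. Cxcr6 was lower in NK than in CD8 T cells by −5.52 ± 0.32 (edgeR adjusted p = 1.56e-08) and lower in Foxp3 than in CD4 T cells by −2.92 ± 0.20 (adjusted p = 1.23e-08). Its lower level in CD8 than in CD4 T cells, −0.60 ± 0.19 (adjusted p = 0.0322), was not called without wtIDH1 library 1 (−0.28) or wtIDH1 library 2 (−0.61), at 5% mitochondrial UMIs (−0.48) or with DESeq2 (−0.57). Cxcr6 overlaps Fyco1 on the other strand.

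Ccr4 (9:114490316-114504916, minus strand), the receptor of CCL17 and CCL22, was the member with the fewest UMIs. Foxp3 T cells had 8 and 4 UMIs (31.7 and 50.1 CPM) in mIDH1 and 26 and 10 UMIs (103 and 102 CPM) in wtIDH1 libraries, and CD4 T cells had 12 and 4 UMIs (19.6 and 15.7 CPM) in mIDH1 and 10 and 6 UMIs (11.8 and 16.04 CPM) in wtIDH1 libraries. Foxp3 T cells were above CD4 T cells in every library, and the 2 genotypes did not overlap in Foxp3 T cells. NK cells had 0 UMIs in any library, and CD8 T cells had 1 UMI in mIDH1 library 2 and none elsewhere. Ccr4 was lower in CD8 than in CD4 T cells by −5.97 ± 0.72 (edgeR adjusted p = 7.38e-05). Between Foxp3 and CD4 T cells it did not pass the filter on low counts.

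Ccr7 (11:99144196-99155077, minus strand), the lymph node homing receptor, belonged mainly to mature dendritic cells. They had 2609 and 1667 CPM in mIDH1 and 4320 and 4691 CPM in wtIDH1 libraries, above every other gate tested. A Ccr7 UMI was found in 82.9% (72.9 to 89.7) and 77.4% (60.2 to 88.6) of mIDH1 and in 92.4% (83.5 to 96.7) and 86.6% (76.4 to 92.8) of wtIDH1 mature dendritic cells. B cells had 219 and 153 CPM in mIDH1 and 80.6 and 458 CPM in wtIDH1 libraries, from 13 to 27 cells each, and were above cDC2 in 3 of 4 libraries. In wtIDH1 library 1, cDC2 had 107 CPM. Foxp3 T cells had 91.1 and 62.6 CPM in mIDH1 and 15.9 and 20.4 CPM in wtIDH1 libraries, CD8 T cells 19.7 and 23.6 CPM in mIDH1 and 69.7 and 23.7 CPM in wtIDH1 libraries, and CD4 T cells 39.3 and 74.4 CPM in mIDH1 and 28.4 and 80.2 CPM in wtIDH1 libraries. The order of these T cell subsets changed from library to library, and CD8 against CD4 T cells gave −0.52 ± 0.40 (edgeR adjusted p = 0.397). NK cells had 2.65 and 2.04 CPM in mIDH1 and 10.6 and 0 CPM in wtIDH1 libraries and were lower than CD8 T cells by −3.15 ± 0.37 (adjusted p = 1.4e-05).

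The genotypes were then compared within each gate, again with edgeR and with adjusted p over all genes tested there. Over 14 gates and sums, members passed the filter on low counts in 64 instances, of which 5 were called higher and 5 lower in mIDH1. The share of all genes called in either direction ran from 0.633% in microglia to 19.2% in mature dendritic cells. With 2 libraries against 2 no exact permutation test can give a p below 0.333, so these calls rest on edgeR's model of the spread. Monocytes carried 3 of the 10 calls. Of 6 members tested in monocytes, 1 was higher and 2 were lower in mIDH1, beside 12.3% of all genes called in either direction (8.19% higher and 4.06% lower). Cxcl9, at 948 and 1196 CPM in mIDH1 against 477 and 441 CPM in wtIDH1 monocytes, rose by 1.49 ± 0.23 (edgeR adjusted p = 0.00327). A cell with Cxcl9 held on average 26.7 and 36.3 UMIs of it in mIDH1 and 13.5 and 13.9 in wtIDH1 libraries, while the shares of cells with a UMI were close. The Neutrophil marker list summed to 1569 and 2054 CPM in the mIDH1 and 908 and 856 CPM in the wtIDH1 monocyte gate, with 0 to 3 of its 12 markers at 0, and its part in the result was not tested. The other CXCR3 ligand, Cxcl10, gave 0.34 ± 0.26 (adjusted p = 0.416), and its libraries overlapped.

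Cxcl16 fell in mIDH1 monocytes by −1.20 ± 0.25 (edgeR adjusted p = 0.0113), a call lost without mIDH1 library 2 (−0.89). A Cxcl16 UMI was found in 56.2% (51.6 to 60.7) and 45.1% (40.5 to 49.6) of mIDH1 and in 82.5% (79.8 to 84.99) and 76.3% (72.2 to 79.9) of wtIDH1 monocytes. With cells thinned to 1000 UMIs these shares were 19.1 and 11.97% in mIDH1 and 41.5 and 36.4% in wtIDH1 libraries. Here the 2 genotypes separated in the share of cells, thinned or not. In NK cells the mean share with a Cxcl16 UMI was 1.67% in mIDH1 and 4.54% in wtIDH1 libraries. The Microglia marker list was also lower in the mIDH1 monocyte gate, at 276 and 194 CPM against 588 and 519 CPM in wtIDH1, with all 11 of its markers read, and its part was not tested. Across all kept cells Cxcl16 was the only member called of 9 tested, beside 14.1% of all genes (8.86% higher and 5.26% lower), at −1.55 ± 0.23 (adjusted p = 0.0218), and that call was lost without mIDH1 library 2 (−1.33) or wtIDH1 library 1 (−1.45). This sum depends on the cell types captured as well as on levels within them. Neutrophils, lower in Cxcl16 than monocytes, were 24.1 and 46.4% of kept mIDH1 and 3.04 and 5.23% of kept wtIDH1 cells. The part of cell make-up in the call was not tested. In macrophages none of 5 members tested was called, beside 7.67% of all genes (5.94% higher and 1.73% lower): Cxcl16 gave −0.55 ± 0.16 (adjusted p = 0.0843) and Cxcl9 1.13 ± 0.40 (adjusted p = 0.135). In microglia none of 3 members tested was called, beside 0.633% of all genes (0.599% higher and 0.0339% lower).

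In neutrophils 1 of 3 members tested was called, beside 1.96% of all genes (1.39% higher and 0.57% lower). Cxcl16, at 64.8 and 15.4 CPM in mIDH1 against 136 and 225 CPM in wtIDH1 neutrophils, fell by −1.88 ± 0.42 (edgeR adjusted p = 0.0375). The call was lost without mIDH1 library 2 (−1.27) or wtIDH1 library 2 (−1.46), and the change was −2.91 without mIDH1 library 1. The Macrophage marker list moved with it in this gate, at 1012 and 346 CPM in mIDH1 and 1752 and 1836 CPM in wtIDH1 neutrophils, with all 9 markers read in every library, and its part in the result was not tested. Mean Cxcl16 was also lower in mIDH1 NK cells, at 4.38 CPM against 22.0 CPM in wtIDH1. The part of free RNA was not tested. Cxcl9 gave 1.97 ± 0.50 (adjusted p = 0.0504), and 4.32% (3.16 to 5.87) and 6.08% (5.02 to 7.35) of mIDH1 and 4.30% (1.69 to 10.5) and 4.49% (2.19 to 8.97) of wtIDH1 neutrophils held a UMI of it. In NK cells, which should lack it, the shares were 4.30 and 0.758% in mIDH1 and 1.88 and 0% in wtIDH1 libraries. The mIDH1 library 1 share in neutrophils was thus close to its NK share, but the levels were apart. Cxcl9 had 36.4 to 216 CPM in neutrophils and 0 to 10.6 CPM in NK cells over the libraries. Cxcl10 gave 0.67 ± 0.44 (adjusted p = 0.426).

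Ccr7 also fell in monocytes, at low levels. It had 4 and 5 UMIs in 2 and 3 mIDH1 monocytes, against 145 and 61 UMIs in 25 and 8 wtIDH1 monocytes. This gave 0.904 and 1.14 CPM in mIDH1 and 18.8 and 15.8 CPM in wtIDH1 libraries, a fall of −3.81 ± 0.38 (edgeR adjusted p = 0.000382). Few cells carried it: 1 monocyte held 65 of the 145 UMIs of wtIDH1 library 1 and 1 held 28 of the 61 of wtIDH1 library 2. Of the Ccr7-positive wtIDH1 monocytes, 44.0 and 25.0% held UMIs of at least 2 mature dendritic cell markers, against 15.5 and 14.7% of the Ccr7-negative ones. The Mature DC marker list summed to 103 and 114 CPM in the mIDH1 and 139 and 143 CPM in the wtIDH1 monocyte gate, with 0 to 2 of its 10 markers at 0, and its part in the result was not tested.

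**Figure D4:**
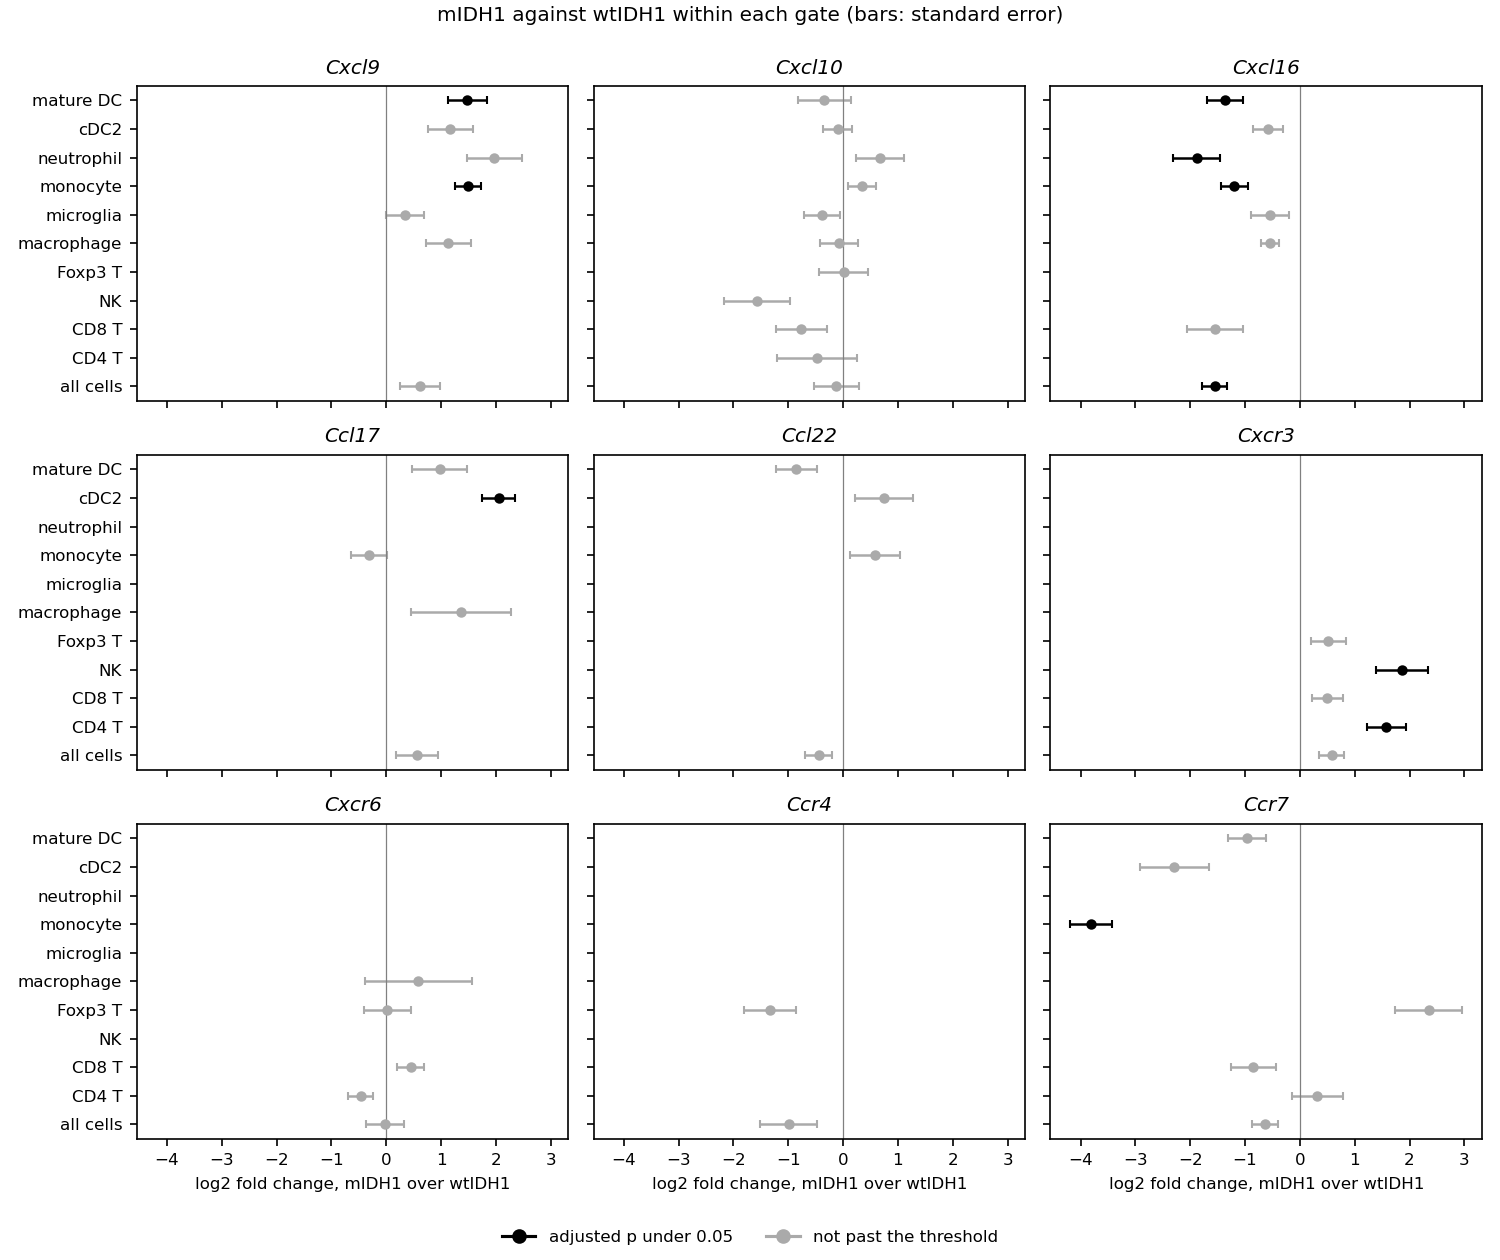
Log2 fold change of each member, mIDH1 over wtIDH1, in the gates where it passed the filter on low counts; points are edgeR estimates, bars their standard errors, and black marks an adjusted p under 0.05. Cxcl9 is called above 0 in monocytes and mature DC, and Cxcl16 is below 0 in every gate drawn.

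In cDC2 1 of 6 members tested was called, beside 2.39% of all genes (2.16% higher and 0.229% lower). Ccl17, at 1786 and 922 CPM in mIDH1 against 312 and 454 CPM in wtIDH1 cDC2, rose by 2.06 ± 0.30 (edgeR adjusted p = 0.0117). The libraries did not overlap, and the share of cells with a UMI did: 38.1% (25.0 to 53.2) and 40.5% (27.04 to 55.5) in mIDH1 and 26.7% (19.1 to 35.8) and 38.8% (31.3 to 46.8) in wtIDH1 libraries. A positive cell held on average 53.1 and 26.8 UMIs in mIDH1 and 11.9 and 10.9 in wtIDH1 libraries. The call was lost without wtIDH1 library 1 (1.81) or wtIDH1 library 2 (2.33). Ccl17 in mature dendritic cells gave 0.97 ± 0.51 (adjusted p = 0.185). In cDC2 Ccr7 gave −2.29 ± 0.63 (adjusted p = 0.0828), with 16 and 0 UMIs in mIDH1 and 115 and 117 in wtIDH1 libraries, and Cxcl9 gave 1.17 ± 0.41 (adjusted p = 0.176).

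In mature dendritic cells 1 member was higher and 1 lower in mIDH1 of 6 tested, beside 19.2% of all genes (13.7% higher and 5.48% lower), so the members' share was not far from that of all genes. Cxcl9, at 715 and 518 CPM in mIDH1 against 180 and 302 CPM in wtIDH1 mature dendritic cells, rose by 1.48 ± 0.35 (edgeR adjusted p = 0.00816). Single cells held 26.3 and 33.3% of those UMIs in mIDH1 and 30.6 and 39.8% in wtIDH1 libraries. Cxcl16, at 553 and 365 CPM in mIDH1 against 1350 and 1236 CPM in wtIDH1 cells, fell by −1.37 ± 0.33 (adjusted p = 0.00963). Neither call held without wtIDH1 library 1 (Cxcl9 1.11, Cxcl16 −1.35) or without wtIDH1 library 2 (Cxcl9 1.86, Cxcl16 −1.47). Cxcl16 was also not called with stricter gates (−1.003) or with Leiden clusters in place of gates (−0.50), and Cxcl9 was not called without doublet removal (0.94) or with Leiden clusters (1.81). The other members stayed short of the threshold, with Ccr7 at −0.96 ± 0.35 (adjusted p = 0.0638) and Ccl22 at −0.85 ± 0.38 (adjusted p = 0.12). The Mature DC marker list itself summed to 5817 and 3131 CPM in mIDH1 and 6736 and 7707 CPM in wtIDH1 cells of this gate, and its part in these results was not tested. In plasmacytoid dendritic cells (pDC) none of 2 members tested was called, beside 2.45% of all genes (2.36% higher and 0.0925% lower).

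Among lymphocytes the calls were of Cxcr3. In CD4 T cells 1 of 4 members tested was called, beside 4.52% of all genes (3.36% higher and 1.16% lower). Cxcr3, with 49 and 35 UMIs (80.2 and 137 CPM) in mIDH1 against 29 and 18 UMIs (34.3 and 48.1 CPM) in wtIDH1 CD4 T cells, rose by 1.58 ± 0.35 (edgeR adjusted p = 0.0167). A UMI was found in 30.3% (22.4 to 39.5) and 37.9% (26.6 to 50.8) of mIDH1 and in 13.7% (9.39 to 19.6) and 16.8% (10.6 to 25.6) of wtIDH1 cells, at medians of 4698, 4113, 4021 and 3488 UMIs per cell. Thinned to 1000 UMIs, the shares were 9.17 and 13.8% in mIDH1 and 4.60 and 3.16% in wtIDH1 libraries. The call was lost without mIDH1 library 2 (1.18) or wtIDH1 library 1 (1.33). The regulatory T cell gene Ikzf2 had 149 and 113 CPM in the mIDH1 and 153 and 222 CPM in the wtIDH1 CD4 gate, and the part of regulatory T cells in the result was not tested.

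In NK cells 1 of 2 members tested was called, beside 5.44% of all genes (4.14% higher and 1.3% lower). Cxcr3, with 11 and 17 UMIs in mIDH1 against 8 and 6 UMIs in wtIDH1 NK cells, rose by 1.86 ± 0.48 (edgeR adjusted p = 0.0186). A UMI was found in 8.60% (4.42 to 16.1) and 9.85% (5.85 to 16.1) of mIDH1 and in 2.63% (1.28 to 5.33) and 2.89% (1.24 to 6.59) of wtIDH1 NK cells, and the mIDH1 cells were deeper, with medians of 3601 and 3543.5 UMIs against 2744.5 and 2529. Thinned to 1000 UMIs, the shares were 3.23 and 3.03% in mIDH1 and 1.51 and 1.74% in wtIDH1 libraries. The call was lost without mIDH1 library 2 (1.66), wtIDH1 library 1 (1.77) or wtIDH1 library 2 (1.93). In CD8 T cells none of 5 members was called, beside 5.7% of all genes (4.16% higher and 1.54% lower), with Cxcr3 at 0.50 ± 0.28 (adjusted p = 0.311) and Cxcr6 at 0.44 ± 0.24 (adjusted p = 0.292). In Foxp3 T cells none of 5 was called, beside 1.18% of all genes (1.12% higher and 0.0573% lower), with Ccr4 at −1.33 ± 0.47 (adjusted p = 0.261) and Ccr7 at 2.35 ± 0.61 (adjusted p = 0.0958). None of 7 members was called in all T cells together, beside 9.36% of all genes (6.8% higher and 2.57% lower), and the 1 member tested in B cells was not called, beside 9.17% of all genes (7.4% higher and 1.78% lower). In edgeR's test an unadjusted p under 0.05 was reached by 2 of 5 members in macrophages (Cxcl9 and Cxcl16), 1 of 5 in CD8 T cells (Cxcl16), 2 of 5 in Foxp3 T cells (Ccr4 and Ccr7), 3 of 7 in all T cells (Cxcl16, Cxcr3 and Ccr4) and 0 in microglia, pDC and B cells, and DESeq2 called 1 member, Cxcl16 in macrophages, over these 7 comparisons.

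Whether the genotype difference itself differed between gates was tested by an interaction term in a fit that kept libraries as blocks. The rise of Ccl17 in cDC2 differed from its change in monocytes by 2.38 ± 0.28 (edgeR adjusted p = 0.00331). It was the 1 call of 6 members tested, beside 0.206% of all genes (0.137% higher and 0.0686% lower), and it was called in each of 9 alternatives. Few monocytes carried Ccl17: 35 and 26 UMIs lay in 6 and 3 mIDH1 cells, and 61 and 52 in 8 and 5 wtIDH1 cells. Single monocytes held 68.6 and 84.6% of these UMIs in mIDH1 and 42.6 and 73.1% in wtIDH1 libraries. The fall of Ccr7 in monocytes differed from its change in macrophages by −5.69 ± 1.05 (adjusted p = 0.0223), the 1 call of 7 members, beside 0.74% of all genes (0.203% higher and 0.536% lower), but it turned to 0.64 without mIDH1 library 1, where macrophages held 13 Ccr7 UMIs, 8 of them in 1 cell. It was called in 5 of 9 alternatives and was also lost at 5% mitochondrial UMIs (−4.94), without doublet removal (−2.96) and with stricter gates (−4.94). For neutrophils against monocytes Ccr7 was the 1 call of 6 members, beside 1.31% of all genes (0.901% higher and 0.413% lower), and neutrophils held 33 and 2 Ccr7 UMIs in mIDH1 and 0 and 0 in wtIDH1 libraries, with 27 of the 33 in 1 cell. No member was called for mature dendritic cells against cDC2 (6 tested, beside 6.72% of all genes, 4.91% higher and 1.81% lower), microglia against macrophages (4 tested, 0.0686%), CD8 against CD4 T cells (6 tested, 0.531%), Foxp3 against CD4 T cells (5 tested, 0.172%) or NK against CD8 T cells (5 tested, 0.249%). The rise of Cxcr3 in CD4 T cells was therefore not shown to differ from its change in CD8 T cells (−1.08 ± 0.40, adjusted p = 0.457), nor that in NK cells (1.35 ± 0.53, adjusted p = 0.627). In these 5 comparisons edgeR gave an unadjusted p under 0.05 for 3, 0, 2, 3 and 2 members in the order named, and DESeq2 was not run on interactions. The difference for Cxcr6 between CD8 and CD4 T cells was 0.95 ± 0.24 (adjusted p = 0.0849).

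Other genes of the same pathways were taken from 4 lists and are described by counts. In mature dendritic cells 5 of 16 dendritic cell maturation genes fell and 0 rose, with a median of −0.94, while 13.7% of all genes tested rose, 5.48% fell and their median was 0.0025. They included Il12b, the interleukin that drives interferon gamma production (−2.70 ± 0.53, edgeR adjusted p = 0.00254), the maturation marker Cd83 (−1.44 ± 0.33, adjusted p = 0.00749), Il15, a cytokine for NK and CD8 T cells (−2.03 ± 0.48, adjusted p = 0.0088), and the costimulatory ligand Cd80 (−1.16 ± 0.35, adjusted p = 0.0296). The Mature DC marker list was lower in the mIDH1 cells of this gate as well. In mIDH1 library 2 the gate also held 7 cells without a Ccr7 UMI, at a median of 30470 UMIs per cell. The part of either in these falls was not tested. In monocytes, where Cxcl9 rose, 1 of 9 tested genes of the interferon gamma path rose and 0 fell, with a median of −0.08 against −0.02 over all genes, of which 8.19% rose and 4.06% fell, and it was Socs1, the feedback inhibitor of cytokine receptors (1.003 ± 0.19, adjusted p = 0.00849). In CD8 T cells the 1 call of 9 genes of that path was a rise of Ifng itself (0.89 ± 0.24, adjusted p = 0.049), beside 4.16% of all genes higher and 1.54% lower, while the median of the list was −0.24. Of the other ligands and ligand-processing genes 2 of 5 rose in monocytes, among them Pf4, a chemokine of platelets and macrophages (2.62 ± 0.23, adjusted p = 0.000194), which rose in macrophages as well (1.69 ± 0.17, adjusted p = 0.00302). Of the trafficking receptors and egress genes 1 rose and 3 fell of 12 in monocytes, led by the fractalkine receptor Cx3cr1, which is also 1 of the microglia markers (−1.43 ± 0.17, adjusted p = 0.000756), and Klf2, a factor of T cell egress, fell in CD8 T cells (−1.55 ± 0.33, adjusted p = 0.0194).

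Between gates, 8 of 9 tested genes of the interferon gamma path were higher in monocytes than in macrophages and 0 lower (median 0.73), beside 20.7% higher and 19.9% lower over all genes (median −0.023), and 12 of 15 maturation genes were higher in mature dendritic cells than in cDC2 and 0 lower (median 2.02), beside 14% higher and 17.6% lower over all genes (median −0.063). The mature gate was itself set by markers of matured cells such as Fscn1, so the count of maturation genes is no separate check. Across the same 48 sums, the genes most like Cxcl9 by Pearson correlation of log2(CPM + 1) were Ly6i (0.91), Ifi205 (0.91) and Adap2 (0.91), and those most like Cxcl10 were Gbp2 (0.84), Oas2 (0.82) and Fcgr1 (0.81). For Cxcl16 they were Pik3r6 (0.89), Tmem106a (0.88) and Nrp2 (0.88). Ccl17 was most like Zfp366 (0.89), Dbn1 (0.84) and Tmtc2 (0.83), and Ccl22 most like Tmtc2 (0.91), Adgrg6 (0.89) and Edil3 (0.88). Among receptors, Cxcr3 was most like Ctcf (0.91), Cox20 (0.84) and Jakmip1 (0.83), Cxcr6 like Cd3g (0.94), Camk4 (0.94) and Cd3d (0.925), Ccr4 like Itgb8 (0.92), Ncmap (0.91) and Lrrc32 (0.91), and Ccr7 like Myo1g (0.78), Birc2 (0.77) and Cxcr5 (0.75). Cd3g and Cd3d were themselves gating markers of T cells, so their likeness to Cxcr6 over these gates is no separate check.

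Within single cells the CCR4 ligands were read together. In mature dendritic cells 24 of 24 and 14 of 14 Ccl17-positive cells of the mIDH1 libraries also held Ccl22, as did 18 of 18 and 24 of 25 of the wtIDH1 libraries, 1.09 to 1.25 times the number that independence gives, with Ccl22 in 80.3 to 88.1% of all mature cells of a library. In cDC2 the same was true of 11 of 16 and 6 of 17 cells in mIDH1 and of 13 of 28 and 20 of 57 cells in wtIDH1 libraries, 1.65 to 1.81 times the number that independence gives. Ccl22 and Ccr7 overlapped in mature cells in 56 of 64 and 24 of 26 Ccl22-positive cells in mIDH1 and 51 of 53 and 56 of 59 in wtIDH1 libraries, which was 1.04 to 1.19 times the number that independence gives. For the CXCR3 ligands in monocytes, cells with both Cxcl9 and Cxcl10 numbered 94 and 91 in mIDH1 and 182 and 63 in wtIDH1 libraries, 1.32 and 1.37 times and 1.13 and 1.12 times the number that independence gives. On CD8 T cells Cxcr6 and Ccr7 were read together less often than that, in 16 and 7 mIDH1 and 9 and 10 wtIDH1 cells, 0.725 and 0.711 times and 0.436 and 0.549 times the number that independence gives. These counts move with the depth of a cell and carry no test.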

How the data were processed

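Single-cell RNA of 4 libraries was measured on the 10x Genomics platform. The authors aligned and counted it with Cell Ranger 3.1 against mm10, per the submitters' processing notes, and deposited 1 matrix of UMI counts per library, whose file headers name version 3.0.0. The labels describe an aggregation to equal depth, and the separate matrices, of unequal depth, show none. Aligner settings and whether counting used strand are not given in the sources used here.

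Cells with under 200 genes or over 10% mitochondrial UMIs were left out. Scrublet's automatic threshold marked under 0.5% of cells, so the highest scores, 0.8% per 1000 cells, were removed instead (114 and 104 mIDH1, 79 and 75 wtIDH1 cells). Each kept cell was scored against 15 marker lists. T cells were split by Cd8, Foxp3 and Cd4 markers. Raw UMIs were summed per library and gate for gates with at least 10 cells in every library, filtered for low counts and fitted with edgeR 4.0.16 (R 4.3.3; TMM, quasi-likelihood, Benjamini-Hochberg over all genes tested, threshold 0.05). The comparisons were mIDH1 against wtIDH1 within a gate, gate against gate with the library as a block, and their interaction. Scripts were tested on simulated counts. Shares of cells were also computed after thinning each cell to 1000 UMIs, shallower cells left out. Gates were described with scanpy 1.11.5 and Python 3.11.15. DESeq2 1.42.0, Leiden clusters (2000 genes, 30 components, 15 neighbours, resolution 1.0) and the other alternatives are described under the closing section. Named companion genes were those of 4 lists past the threshold, by adjusted p; genes most like a member needed at least 100 UMIs. The members and lists were chosen with earlier results of these data known, and the gate thresholds and scoring were set after the data were seen.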

Additional observations from a re-analysis of the deposited data

Results flagged for a closer look

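A difference of the genotype effect between cell types passed the test for 3 results. For Ccl17, the log2 change in cDC2 minus that in monocytes was 2.38 (SE 0.28), with 35 and 26 UMIs in mIDH1 and 61 and 52 in wtIDH1 monocytes. For Ccr7, the change in monocytes minus that in macrophages was −5.69 (SE 1.05), from 4 and 5 UMIs in mIDH1 and 145 and 61 in wtIDH1 monocytes beside 13 and 0 in mIDH1 and 1 and 5 in wtIDH1 macrophages. For Ccr7, the change in neutrophils minus that in monocytes was 11.59 (SE 2.09), a fitted value that depends on the prior count, because wtIDH1 neutrophils held 0 UMIs.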

How the results depend on the processing

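Between genotypes 10 of 64 member-by-gate instances were called, and the count was 24 with no filter on low counts, 12 with library totals in place of TMM, 9 at 5% mitochondrial UMIs, 10 without doublet removal, 9 with stricter gates, 8 with Leiden clusters and 11 with DESeq2, while leaving out a library gave 6 to 26. Between gates 26 of 39 were called, and 23 to 27 without 1 library. Of the interactions 3 of 45 were called, 8 with no filter, 2 at 5% mitochondrial UMIs, without doublet removal or with stricter gates, and 3 to 10 without 1 library. In the main fits the share of all genes called per comparison was 0.633 to 19.2% between genotypes and 14.7 to 51.7% between gates. For the interactions it was 0.0686 to 6.72%. Deviations of replicate 1 from the genotype mean had a correlation of −0.014 between mIDH1 and wtIDH1 over 13673 genes. With 2 libraries per genotype this cannot show whether the replicate numbers pair the libraries. With the replicate block 13 instances were called between genotypes, 10 of them shared with the fit without it. The Cxcl9 and Ccr7 calls in monocytes held in all 12 and all 11 alternatives that gave a value. Other calls ended under some alternatives: mature dendritic cell Cxcl9 without doublet removal and with Leiden clusters, mature dendritic cell Cxcl16 with stricter gates and Leiden clusters, cDC2 Ccl17 and CD4 T cell Cxcr3 at 5% mitochondrial UMIs, NK Cxcr3 with stricter gates and Leiden clusters, and neutrophil Cxcl16 without doublet removal. Values that changed sign were monocyte Cxcl10 (−0.28) and mature dendritic cell Ccl22 (0.11) with Leiden clusters, Cxcl9 over all cells without mIDH1 replicate 2 (−0.0095; −0.0095 to 1.05 over the 4 left-out libraries), Cxcl10 over all cells without mIDH1 replicate 1 (0.23) or wtIDH1 replicate 1 (0.44; −0.61 to 0.44), Ccl17 in mature dendritic cells against cDC2 with Leiden clusters (0.83) or without mIDH1 replicate 1 (0.23; −0.68 to 0.23), Cxcl9 in cDC2 against monocytes with Leiden clusters (0.26), and the Ccr7 difference between monocytes and macrophages without mIDH1 replicate 1 (0.64; −6.99 to 0.64). The cause was not tested. Library totals moved the median of all genes by −0.453 (neutrophils) to −0.0958 (mature dendritic cells) between genotypes on the log2 scale, so changes are relative to TMM. Depth is lowest for Ccr4 and Cxcr3, with 102 and 660 UMIs in all.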
